A study of Mus musculus with 8 samples.

Results

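The 10 genes described here belong to the Bcl2 family, the proteins that decide whether a cell's mitochondria release the factors that start cell death. They were taken by name, and all 10 were found among the 23523 genes of the table. They are 4 anti-apoptotic guardians, 2 pro-apoptotic effectors and 4 pro-apoptotic BH3-only sensors.

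RNA sequencing was done on normal brain from mice (3 samples) and on glioblastomas raised in mice (5 samples). The tumours had been started with a lentiviral vector that carried HrasG12V, an activated Ras oncogene, together with a short hairpin RNA against p53. They were taken once the animals had reached the clinical endpoint, and the surrounding brain was cut away under a dissecting microscope with the GFP of the tumour as a guide. The sources used state neither strain, age and brain region nor the promoter and cell type in which the vector was active. They also do not say whether each sample was another animal, so p-values describe only how these samples spread, which may be technical. Each sample was a piece of tissue. For any gene, fewer cells of a type and less RNA per cell cannot be told apart.

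In the mitochondrial route to apoptosis, the guardians Bcl2, Bcl2l1 (Bcl-xL), Bcl2l2 (Bcl-w) and Mcl1 hold the effectors Bax and Bak1 in check. When the effectors are released they open pores in the outer mitochondrial membrane, and cytochrome c then activates caspases. BH3-only proteins are the sensors: Bid links death receptors to the route, Bcl2l11 (Bim) and Bbc3 (Puma) can bind all guardians, and Pmaip1 (Noxa) binds mainly Mcl1. Bbc3, Pmaip1 and Bax are well known targets of p53, and Bcl2l1 and Bcl2l2 are the guardians known best from adult neurons.

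The libraries held between 5490356 and 15564279 fragments. Trp53, the hairpin's target, stood at 4.74, 7.21 and 4.91 CPM (a gene's fragments scaled to the TMM-adjusted size of its library) in brains 1 to 3. Its tumour values were 2.95, 3.25, 5.92, 2.74 and 5.49 CPM, and it was not called (log2 fold change -0.46, edgeR adjusted p = 0.262). Hras rose 4.15-fold (edgeR adjusted p = 1.9e-05). Of 6 neuronal, 6 oligodendrocyte and 6 astrocyte markers, 4, 6 and 4 were lower in the tumours and none was higher. All 6 markers of dividing cells were higher, but 4 of them did not reach the filter on low counts in every brain, and the other 2 were both higher. Of 6 macrophage and monocyte markers 5 were higher (2 of the 3 that reached the filter in all brains), and of 6 neutrophil markers all 6 were (1 of the 1 that reached it). Brain 1 stood apart by its oligodendrocyte markers, which summed to 6000 CPM against 3090 and 3100 in the other brains. Tumour 4 stood apart with the lowest sums of dividing cell markers (463 CPM against 846 to 1300) and of macrophage and monocyte markers (392 CPM against 623 to 1220). Endothelial markers (5 of 6 higher; 78.2 to 93.0 CPM in brains, 136 to 370 CPM in tumours) and pericyte markers (3 of 6 higher, 1 lower; 93.9 to 107 and 196 to 765 CPM) also moved, as did microglial markers (3 of 6 higher, 2 lower; 387 to 404 and 491 to 565 CPM). T and NK cell markers summed to at most 3.97 CPM in any sample and B cell markers to at most 6.71 CPM, with Cd3e, Cd3d, Nkg7 and Ms4a1 among those at 0 in the brains. The part of these cell types in the results below was not tested.

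Of the 10 members, 6 were higher in glioblastoma, 1 was lower and 3 did not pass the test. Over all 14641 genes tested, 37.1% were called higher and 33.9% lower, 71.0% in all, at an adjusted p of 0.05 (edgeR quasi-likelihood test with Benjamini-Hochberg adjustment), so a change in itself was common in this comparison. All 5 called pro-apoptotic members were higher, namely Pmaip1, Bak1, Bcl2l11, Bax and Bid. The 4 anti-apoptotic members went different ways: Mcl1 rose, Bcl2l2 fell, and Bcl2 and Bcl2l1 did not pass. Brain and tumour values were fully separate for 7 of the 10 members, and for 70.6% of all genes tested.

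**Figure D1:**
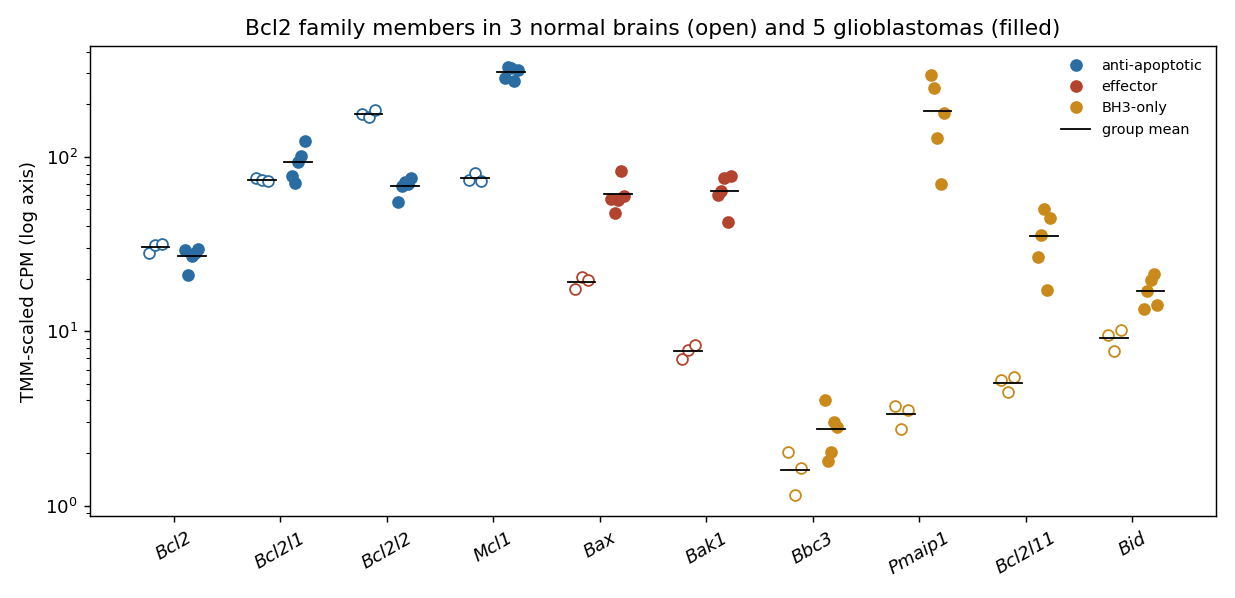
Level of each member in every sample, in CPM on a log axis, with 3 normal brains as open and 5 glioblastomas as filled circles, the group means as black lines and the roles as colours. Pmaip1 is separated most widely, from at most 3.72 CPM in the brains to at least 69.4 CPM in the tumours, Bcl2l2 is the member with all tumours below all brains, and the groups overlap for Bcl2, Bcl2l1 and Bbc3.

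The upstream sequences of Mcl1, Bcl2l2, Bax and Bak1 are shown because these guardians and effectors were called in the comparison and each has a single start in RefSeq's table (GRCm38.p6). Each run holds the 250 bases before the start, 5′ to 3′ on the strand of the gene. The bases after the start were found in a GENCODE transcript of the gene for Bcl2l2, Bax and Bak1 but not for Mcl1, so the start of Mcl1 rests on RefSeq alone. Capitals mark matches to any of 9 motifs searched on both strands.
Mcl1: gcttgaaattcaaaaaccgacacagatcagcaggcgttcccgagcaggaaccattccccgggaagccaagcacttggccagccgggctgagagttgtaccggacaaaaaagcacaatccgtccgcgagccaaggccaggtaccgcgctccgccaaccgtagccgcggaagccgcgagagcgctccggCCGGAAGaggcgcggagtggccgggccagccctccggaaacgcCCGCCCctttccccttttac
Bcl2l2: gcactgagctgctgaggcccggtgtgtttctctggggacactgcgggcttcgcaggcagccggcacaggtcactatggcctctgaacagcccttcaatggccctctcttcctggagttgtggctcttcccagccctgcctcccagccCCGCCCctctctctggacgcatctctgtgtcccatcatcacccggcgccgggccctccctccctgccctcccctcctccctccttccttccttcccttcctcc
Bax: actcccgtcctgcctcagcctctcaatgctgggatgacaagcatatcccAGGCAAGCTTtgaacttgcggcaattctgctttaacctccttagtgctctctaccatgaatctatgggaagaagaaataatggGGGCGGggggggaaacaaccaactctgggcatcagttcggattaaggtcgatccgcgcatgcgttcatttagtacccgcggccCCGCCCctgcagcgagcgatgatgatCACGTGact
Bak1: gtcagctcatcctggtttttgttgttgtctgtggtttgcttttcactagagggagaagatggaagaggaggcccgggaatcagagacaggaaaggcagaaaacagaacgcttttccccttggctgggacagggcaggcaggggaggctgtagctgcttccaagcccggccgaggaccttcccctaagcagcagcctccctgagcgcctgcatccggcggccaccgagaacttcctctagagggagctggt
These runs lie at chr3:95658471-95658720 (plus strand) for Mcl1, chr14:54883175-54883424 (plus strand) for Bcl2l2, chr7:45466899-45467148 (minus strand) for Bax and chr17:27028628-27028877 (minus strand) for Bak1.

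The window of Mcl1 held 1 ETS core and 1 GC box. That of Bax held 1 p53 half-site, 2 GC boxes and 1 E-box, and that of Bcl2l2 held 1 GC box. No capital stands in the window of Bak1. Among 32841 RefSeq promoter windows of this length, the ETS core (CCGGAAG) was found in 6.91%, the GC box (GGGCGG) in 32.7%, the E-box (CACGTG) in 6.02% and the p53 half-site in 7.13%. The other motifs searched, with their shares of windows, were the AP-1 site TGANTCA (6.75%), the cyclic AMP response element TGACGTCA (1.55%), the FOXO core GTAAACA (3.17%), the interferon response element (2.98%) and the NF-kB site (7.25%). No matches overlapped in the windows shown. These matches describe letters, and binding was not measured.

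Mcl1, a short-lived guardian that cells remake constantly, rose in every tumour. It stood at 73.8, 80.1 and 72.3 CPM in brains 1 to 3 and at 284, 325, 323, 271 and 315 CPM in the 5 tumours in order. The lowest tumour was more than 3 times as high as the highest brain, and both groups were tight. Mcl1 rose by 2.01 ± 0.13 log2 units (SE; n = 3 and 5; edgeR adjusted p = 3.3e-06), a 4.03-fold rise with a 95% interval from 3.28 to 4.94. Among the tumours Mcl1 had an SD of 0.119 in log2 CPM, against a median of 0.379 over all genes tested.

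Bcl2l2, a guardian prominent in mature neurons, moved the other way. It was measured at 175, 168 and 184 CPM in the brains and at 54.8, 67.8, 71.1, 70.0 and 75.0 CPM in the tumours. Every tumour lay well below every brain. The fall was 1.38 ± 0.13 on the log2 scale (SE; edgeR adjusted p = 2.2e-05), so that tumours kept 0.385 of the brain level (95% interval 0.315 to 0.471). The neuronal markers beside it summed to between 5720 and 6890 CPM in the brains and between 497 and 919 CPM in the tumours. Their part in the lower level of Bcl2l2 was not tested.

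Bcl2, the founding member of the family, was close to its brain level in the tumours. It stood at 28.2, 31.3 and 31.5 CPM in the brains and at 29.3, 20.9, 27.1, 28.0 and 29.7 CPM in the tumours. The groups overlapped, and tumour 2 was the lowest sample. For Bcl2 the log2 fold change was -0.17 with a 95% interval from -0.51 to 0.18 (edgeR adjusted p = 0.351), which leaves room for a fall to 0.701 of the brain level or a 1.13-fold rise.

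Bcl2l1, the main guardian of many adult tissues, had 75.3, 73.7 and 72.0 CPM in the brains and 77.4, 70.2, 92.6, 101 and 123 CPM in the tumours. Tumours 1 and 2 were close to the brains and tumours 3, 4 and 5 above them. This log2 fold change of 0.34 ± 0.19 (SE) did not pass (edgeR adjusted p = 0.140; 95% interval -0.09 to 0.77). With scaling by library size only it did (log2 fold change 0.47, edgeR adjusted p = 0.0474).

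Levels of different genes can be compared per transcript length, on the authors' FPKM scale. In normal brain Bcl2l2 led the guardians at 51.1 ± 2.33 FPKM (SD, n = 3), followed by Bcl2l1 at 32.2 ± 0.602, Mcl1 at 21.7 ± 1.22 and Bcl2 at 4.38 ± 0.326 FPKM. The 4 did not overlap in the brains. In the tumours Mcl1 led at 86.9 ± 7.95 FPKM (SD, n = 5), ahead of Bcl2l1 at 40.1 ± 8.49, Bcl2l2 at 19.5 ± 2.15 and Bcl2 at 3.85 ± 0.611 FPKM, again with no overlap. Among these 4 guardians, first place thus passed from Bcl2l2 to Mcl1, and Bcl2 was last of the 4 in both tissues. The guardians of the Bcl2a1 cluster, described below, are not in this order. The most abundant of them in the tumours, Bcl2a1b, stood at 0.329 ± 0.115 FPKM (SD) in the brains. In the tumours it stood at 48.3 ± 21.7 FPKM (SD), with a mean between those of Mcl1 and Bcl2l1. Its order against Bcl2l1 differed between tumours. Bcl2a1b was the higher in tumours 2 and 3 (68.9 and 71.3 against 31.2 and 40.2 FPKM). Bcl2l1 was the higher in tumours 1, 4 and 5 (33.6, 43 and 52.7 against 27.2, 26.4 and 47.5 FPKM).

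The shares show the same exchange. Mcl1 made up 19.5%, 21.2% and 18.9% of the summed guardian FPKM in brains 1 to 3, and 60.2%, 63.8%, 58.9%, 53.4% and 53.1% in tumours 1 to 5. Bcl2l2 made up 46.7%, 45.0% and 48.5% in the brains and between 11.7% and 13.9% in the tumours. The share of Bcl2l1 overlapped between the groups, with 28.5% to 30.1% in the brains and 20.9% to 31.5% in the tumours. The sum of the 4 guardians itself changed less, from between 109 and 111 FPKM in the brains to between 135 and 167 FPKM in the tumours. Genes of the Bcl2a1 cluster, which were higher in the tumours, are in neither the shares nor this sum.

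**Figure D2:**
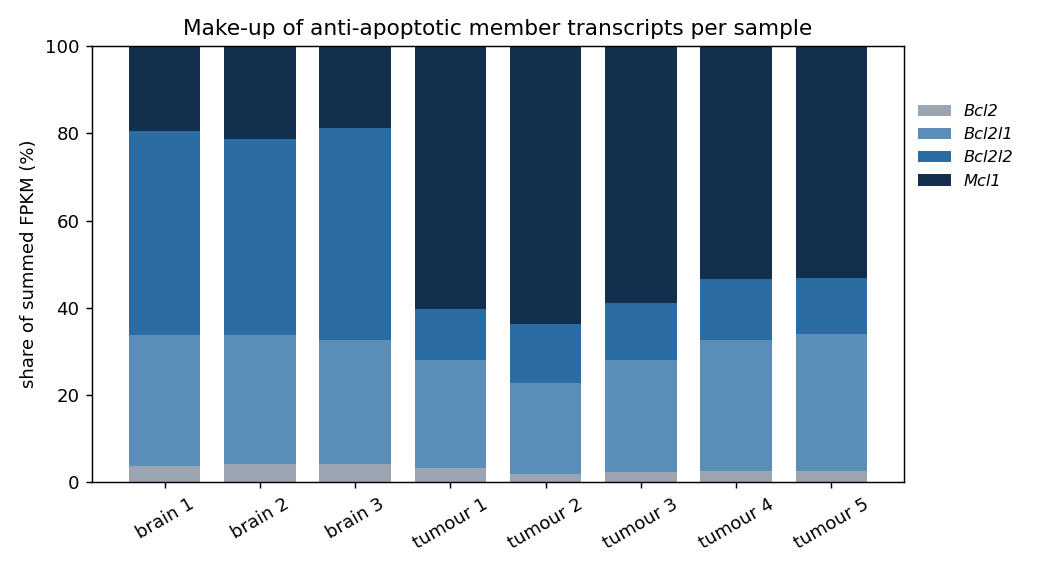
Share of Bcl2, Bcl2l1, Bcl2l2 and Mcl1 in their summed FPKM, in percent, as 1 stacked bar for each of 3 normal brains and 5 glioblastomas. The Mcl1 segment fills at most 21.2% of a brain bar and at least 53.1% of a tumour bar, while the Bcl2l2 segment shrinks from at least 45.0% to at most 13.9%.

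Both effectors rose. Bak1, which resides on the outer mitochondrial membrane, stood at 6.94, 7.79 and 8.32 CPM in the brains and at 59.9, 63.5, 75.5, 42.3 and 77.4 CPM in the tumours. Tumour 4 was the lowest tumour and still far above every brain. Bak1 rose by 3.05 ± 0.24 log2 units (SE; edgeR adjusted p = 8.7e-06), an 8.27-fold rise with a 95% interval from 5.67 to 12.

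Bax, which moves from the cytosol to mitochondria when activated, had 17.4, 20.3 and 19.5 CPM in the brains and 57.4, 47.8, 56.6, 82.5 and 59.8 CPM in the tumours. Here tumour 4 was the highest sample and tumour 2 the lowest tumour, and no tumour reached down to the brains. Bax rose by 1.67 ± 0.20 log2 units (SE; edgeR adjusted p = 8.4e-05), a 3.19-fold rise (95% interval 2.34 to 4.35). Per length, Bax stood at 27.1 ± 2.23 FPKM (SD, n = 3) in the brains against 4.04 ± 0.382 FPKM for Bak1, and at 85.3 ± 16.9 FPKM (SD, n = 5) in the tumours against 33.3 ± 7.43 FPKM for Bak1. Of these 2, Bax was the more abundant transcript in all 8 samples. The effector relative Bok, which is not a member here, stood at 32.5 ± 11.5 FPKM (SD) in the brains and 30.8 ± 13.4 FPKM (SD) in the tumours.

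Pmaip1, the sensor that binds Mcl1, had the largest log2 fold change among the 10 members, with 413 of the 14641 genes tested above it. It stood at 3.72, 2.74 and 3.54 CPM in brains 1 to 3 and at 295, 246, 128, 69.4 and 177 CPM in the tumours. The groups were far apart, and the tumours also differed among themselves by 4.25-fold between tumour 1 and tumour 4. Pmaip1 rose by 5.77 ± 0.56 log2 units (SE; edgeR adjusted p = 3.1e-05), a 54.7-fold rise with a 95% interval from 22.4 to 133.

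Bcl2l11, a sensor held down by growth factors in many cells, stood at 5.24, 4.47 and 5.45 CPM in the brains and at 26.7, 35.4, 50.4, 17.3 and 44.4 CPM in the tumours. Tumour 4 was again the lowest tumour, at more than 3 times the level of the highest brain. The log2 fold change was 2.78 ± 0.38 (SE; edgeR adjusted p = 2e-04), or 6.87-fold (95% interval 3.79 to 12.4). The gene's fragments were divided in the deposited table among 4 RefSeq accessions, which encode splice forms, and the division jumped between samples. One accession held 30.99 and 30.95 fragments in brains 1 and 2 but 0.01075 in brain 3, where another held 36.71. When only the most abundant accession was tested, the call was lost (log2 fold change 3.93, edgeR adjusted p = 0.0537), so splice forms are not compared here.

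Bid, the sensor that caspase-8 cleaves, rose less. It had 9.47, 7.65 and 10.2 CPM in the brains and 13.3, 17.0, 19.7, 21.2 and 14.1 CPM in the tumours. The lowest tumour was above the highest brain. The log2 fold change was 0.91 ± 0.22 (SE; edgeR adjusted p = 0.00558), a 1.87-fold rise with a 95% interval from 1.32 to 2.66.

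Bbc3, the sensor most closely tied to p53, was scarce in both tissues, with 32 fragments in all brains together and 139 in all tumours. It stood at 2.03, 1.15 and 1.64 CPM in the brains and at 4.03, 1.80, 2.02, 3.03 and 2.83 CPM in the tumours. Tumours 2 and 3 lay within the range of the brains. The log2 fold change of 0.78 ± 0.38 (SE) did not pass (edgeR adjusted p = 0.0943), and the 95% interval from -0.09 to 1.64 includes both no change and a rise of about 3.11-fold. Bbc3 was also the one member whose brain values did not all reach the filter on low counts.

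**Figure D3:**
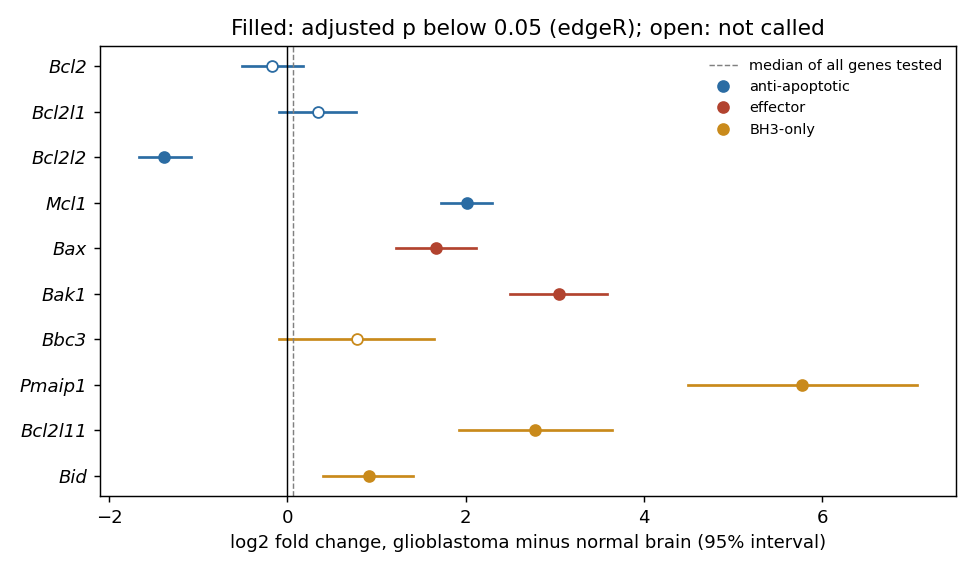
Log2 fold change of each member, glioblastoma minus normal brain, with its 95% interval as a bar, coloured by role; filled points passed at an adjusted p of 0.05, and the dashed line is the median of all genes tested (0.06). Effectors and sensors lie to the right of it, from 0.78 for Bbc3 to 5.77 for Pmaip1, while the guardians spread from -1.38 for Bcl2l2 to 2.01 for Mcl1.

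Set side by side, the 6 pro-apoptotic members had a median log2 fold change of 2.23 and the 4 anti-apoptotic members one of 0.08, against 0.06 over all genes tested. Of the former 5 and of the latter 1 were called higher, against 37.1% of all genes tested. Because members were chosen with results known, no test was made of this difference. It describes the members only, and family genes outside them went both ways. The guardians Bcl2a1a and Bcl2a1b were higher (log2 fold changes 5 and 7.08), as was Bcl2a1d. Bcl2a1a and Bcl2a1b each had 4 fragments in all brains together. Like Bcl2a1d, they did not reach the filter on low counts in every brain, so the size of their rise is uncertain. The BH3-only gene Hrk was lower (-4.99), and Bok did not pass (-0.08). Bmf and Bad were higher (2.1 and 0.36). The FPKM ratio of Bax to Bcl2, often used as a simple gauge of the balance, was 6.14, 6.37 and 6.02 in brains 1 to 3 and 18.6, 24.0, 20.6, 30.3 and 18.9 in tumours 1 to 5. Every tumour was higher, and the ratio of the group means was 3.64. The summed FPKM of Bax and Bak1 over that of the 4 guardians was between 0.260 and 0.303 in the brains and between 0.689 and 0.950 in the tumours. Transcripts of the 4 guardians thus outnumbered those of Bax and Bak1 per length in all 8 samples, by the least in tumour 4. Bok and the guardians outside the members are not in this ratio.

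The make-up of the 4 sensors changed too. Summed over the 4 sensors, the level was between 6.88 and 9.07 FPKM in the brains and between 43.4 and 129 FPKM in the tumours. Bid held 59.7% to 63.4% of this sum in the brains and 5.74% to 26.7% in the tumours, where Pmaip1 held 60.3% to 87.5%. Without Pmaip1 the sum was between 5.82 and 7.70 FPKM in the brains and between 16.2 and 24.3 FPKM in the tumours. Pmaip1 relative to its partner Mcl1 stood at 0.0676, 0.0459 and 0.0657 in the brains and at 1.39, 1.01, 0.530, 0.343 and 0.754 in the tumours on the FPKM scale. In tumours 1 and 2 the sensor's transcript was at least as abundant as that of the guardian, in tumours 3, 4 and 5 it was less so, and in the brains it was a small part of it.

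The tumours differed most in Pmaip1 and Bcl2l11. Their SDs among tumours were 0.826 and 0.613 in log2 CPM, above the median of 0.379 over all genes tested, while those of Mcl1, Bcl2l2 and Bcl2 were 0.119, 0.174 and 0.205. Tumour 4 had the lowest value of Mcl1, Bak1, Pmaip1 and Bcl2l11 and the highest of Bax and Bid. Tumour 2 had the lowest value of Bcl2, Bcl2l1, Bax and Bbc3, and tumour 5 the highest of Bcl2, Bcl2l1, Bcl2l2 and Bak1. Tumour 4 also had the highest sum of astrocyte markers (2450 CPM against 917 to 1410 in the others), beside its low sums of dividing cell and macrophage markers given above. It was the deepest library (15564279 fragments) and had the highest sum of oligodendrocyte markers (840 CPM). Its sums of neuronal (497 CPM), endothelial (136 CPM), pericyte (196 CPM) and neutrophil markers (37.2 CPM) were the lowest among the tumours. Without tumour 4 the log2 fold changes of Pmaip1, Bcl2l11, Bak1 and Mcl1 were 5.99, 2.97, 3.18 and 2.06, and those of Bax and Bid were 1.55 and 0.82.

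**Figure D4:**
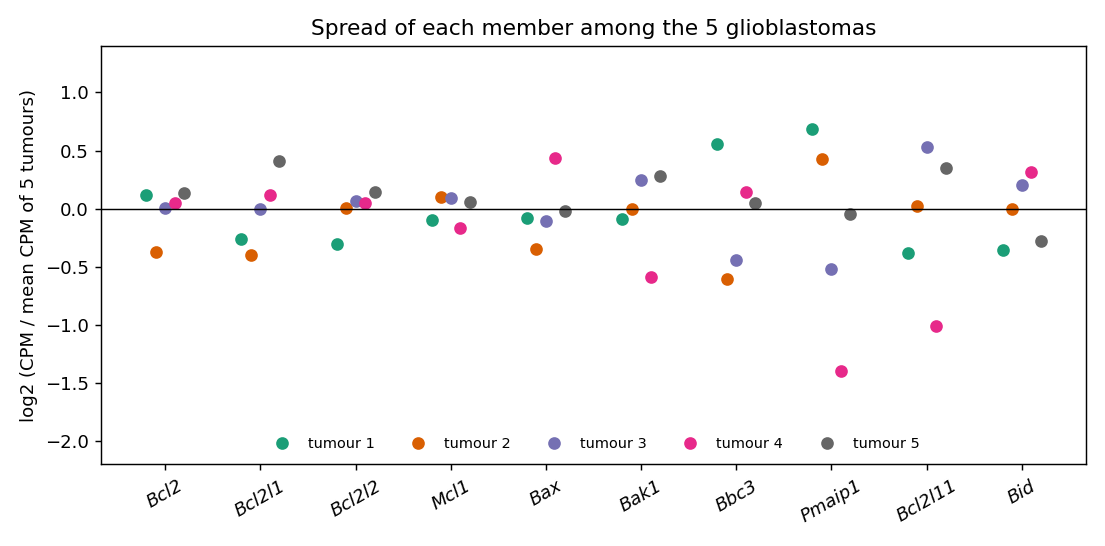
Each member's level in the 5 glioblastomas, as the log2 ratio of its CPM to the mean of the tumours, with 1 colour per tumour. Points of Mcl1 lie close together, those of Pmaip1 and Bcl2l11 lie far apart with tumour 4 lowest (69.4 and 17.3 CPM), and tumour 4 is highest for Bax and Bid (82.5 and 21.2 CPM).

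Of 15 further members of the family, 11 had enough fragments to test, and 6 were higher and 2 lower, with a median log2 fold change of 0.36. Among the 7 that reached the filter in all brains, 2 were higher and 2 lower. Over all genes tested the shares were 37.1% higher and 33.9% lower. The guardians of the Bcl2a1 cluster, which are typical of leukocytes, were nearly absent in brain. Bcl2a1b stood at 0.169, 0.144 and 0.273 CPM in the brains and at 16.3, 40.2, 42.6, 16.1 and 28.8 CPM in the tumours (log2 fold change 7.08 ± 0.62, SE; edgeR adjusted p = 1.6e-05). Tumours 1 and 4 were the lowest, as they were for Bcl2a1a, which rose by 5.00 ± 0.77 log2 units. Bcl2a1a and Bcl2a1b each had 4 fragments in all brains together and were tested only through the tumours. Bcl2a1d had 0 fragments in the brains and was at least 14.4-fold higher when the brains together are set at a floor of 3 fragments. It was tested only through tumours 2, 3 and 5, and without any of these it had too few fragments to test. Copies of this cluster are near-identical, so the division of fragments among them is uncertain. Neutrophil markers beside them summed to 40.3, 137, 110, 37.2 and 227 CPM, in the order of the tumours, and to at most 3.95 CPM in the brains. Macrophage and monocyte markers summed to 623, 920, 1220, 392 and 1210 CPM in the tumours and to between 39.8 and 76.1 CPM in the brains. The part of either cell type in the level of the cluster was not tested.

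Hrk, a BH3-only gene of neurons, fell most in the family. It had 37.7, 79.1 and 91.3 CPM in the brains, with brain 1 lowest, and between 1.64 and 2.89 CPM in the tumours (log2 fold change -4.99 ± 0.31, SE; edgeR adjusted p = 3.1e-06). Bnip3l, a receptor for the removal of mitochondria, fell by 0.75 ± 0.16 log2 units. The other called genes, named after their values were seen, were the BH3-only gene Bmf (4.28-fold), Bcl2l12 (10.8-fold) and Bad (1.28-fold, edgeR adjusted p = 0.0396), all higher in the tumours. Bcl2l12 had only 11 fragments in all brains together and did not reach the filter in every brain. Bad no longer passed without any one of the 3 brains or of tumours 2, 3 and 5 (edgeR adjusted p between 0.0536 and 0.129). The effector relative Bok did not pass, at 30.3 to 59.4 CPM in the brains and 22.3 to 61.4 CPM in the tumours.

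Downstream of the family, 9 of 15 genes of caspase activation and its brakes were higher and 3 lower (37.1% and 33.9% of all genes tested). Their median log2 fold change was 0.80. Of the 13 that reached the filter in all brains, 7 were higher and 3 lower. Birc5 (survivin), a caspase inhibitor relative that also works in mitosis, rose by 5.62 ± 0.75 log2 units (SE; edgeR adjusted p = 0.00018). It rested on 10 fragments in the brains, and the value was 6.69 without brain 2 and 5.02 without brain 3. The executioner caspase gene Casp6 rose by 4.38 ± 0.30 log2 units and Birc3, an inhibitor induced by NF-kB, by 4.10 ± 0.47 log2 units. Birc3 had 40 fragments in all brains together and did not reach the filter in every brain. Cycs, which encodes the cytochrome c that Bax and Bak1 let out, fell by 1.18 ± 0.15 log2 units, the nuclease gene Endog by 1.03 ± 0.21 log2 units and Birc2 by 0.61 ± 0.12 log2 units. Xiap, the direct inhibitor of caspases, stood at 150 ± 6.50 and 158 ± 24.2 CPM and did not pass (edgeR adjusted p = 0.655).

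The death receptor route, which meets the family at Bid, had 8 of 9 tested genes higher and none lower (37.1% and 33.9% of all genes tested). Its median log2 fold change was 2.43. No gene of this list was lower at an unadjusted p under 0.05 either. Fas, Tnfrsf10b and Fadd did not reach the filter in every brain, and 5 of the other 6 were higher. Tnfrsf10b, the mouse TRAIL receptor, rose by 5.71 ± 0.35 log2 units (SE; edgeR adjusted p = 2.5e-06), Casp8, the caspase that cleaves Bid, by 4.52 ± 0.38 log2 units and the TNF receptor gene Tnfrsf1a by 4.12 ± 0.31 log2 units. Casp8 stood at 3.89, 3.03 and 2.73 CPM in the brains and at 64.5, 107, 92.3, 39.8 and 67.1 CPM in the tumours, with no overlap and tumour 4 lowest.

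Of 12 genes that act on Mcl1 or the sensors, 11 were tested, of which 3 were higher and 5 lower (37.1% and 33.9% of all genes tested). Their median log2 fold change was -0.49. Among the 10 that reached the filter in all brains, which leaves out Bag3, 2 were higher and 5 lower. Fbxw7, which marks Mcl1 protein for destruction, was measured at 510, 430 and 426 CPM in the brains and at 40.6, 42.0, 43.1, 32.3 and 48.2 CPM in the tumours. Its log2 fold change was -3.46 ± 0.15 (SE; edgeR adjusted p = 5.7e-07). The kinase gene Mapk8 (JNK1) fell by 1.56 ± 0.11 log2 units. Bag3, a co-chaperone, rose by 3.07 ± 0.34 log2 units, Ddit3 (CHOP), a stress factor that induces Bcl2l11, rose 4.01-fold and the p53 inhibitor gene Mdm2 rose by 1.53 ± 0.15 log2 units. Neuronal markers fell in the same contrast, as given above, and their part was not tested.

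Among 9 genes of mitochondrial membrane channels, carriers and protein import, 5 were higher and 2 lower (median log2 fold change 0.57). Over all genes tested, 37.1% were higher, 33.9% lower and 71.0% changed, so the number of changed genes in this list was near the background. Vdac2, the channel that binds Bak1, rose by 0.88 ± 0.13 log2 units (SE; edgeR adjusted p = 0.00034), and Mtch2, a receptor for truncated Bid, by 1.15 ± 0.15 log2 units. Tomm22, an import receptor linked to Bax, rose by 1.08 ± 0.17 log2 units. Its partner Tomm20 fell by 1.94 ± 0.18 log2 units and Vdac1 by 1.74 ± 0.13 log2 units.

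**Figure D5:**
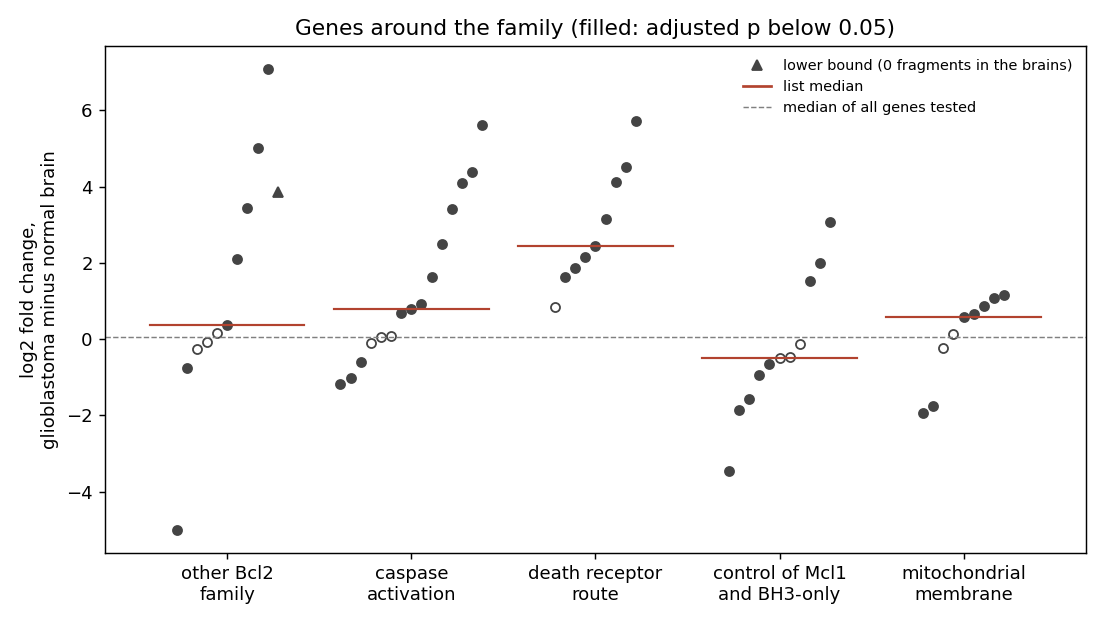
Log2 fold changes, glioblastoma minus normal brain, of the tested genes in 5 lists around the family; filled points passed at an adjusted p of 0.05, the triangle is the lower bound of Bcl2a1d, the red line is the list's median and the dashed line the median of all genes tested (0.06). The death receptor list lies highest, with a median of 2.43, and the list of genes acting on Mcl1 and the sensors lies lowest, with -0.49.

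Some counts may include fragments of neighbours. In the GENCODE annotation of GRCm38, exons of Bak1 and Bid overlap Ggnbp1 and Bcl2l13 on the opposite strand, exons of Bcl2 overlap an antisense transcript, and exons of Bcl2l2 and Bax overlap Gm20521 and Gm45808 on the same strand. The sources used do not state the strand setting of the counting, so these fragments cannot be told apart. No member's summed fragments departed from whole numbers by more than 0.01, the sign used here for fragments split with another gene. This sign cannot show fragments of a neighbour that was not itself counted.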

How the data were processed

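RNA sequencing of 3 normal brains and 5 glioblastomas was analysed by the authors against mm9. The submitters' processing notes name STAR 2.3.0e and Cuffdiff 2.1.1, without settings, annotation release or strand. The authors deposited estimated counts of fragments and FPKM values for 30967 RefSeq accessions, per the file headers. Lines above the header pair sample titles with conditions and replicates. Symbols came from RefSeq's GRCm38 table (30474 accessions) and GENCODE (178). The estimated counts were summed per gene and rounded. FPKM values, scaled by the authors, were summed. Libraries of a group differed beyond counting noise in every pair (lowest chi-square over its degrees of freedom 5.17).

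The test was edgeR 4.0.16 (R 4.3.3) with TMM factors, the default filter and the robust quasi-likelihood F test across 14641 genes, with Benjamini-Hochberg adjustment. Standard errors were derived from F. It was tested on simulated data with 200 changed genes: 69.4% of 4-fold and 16.5% of 2-fold changes were recovered among 14374 genes, and 5.62% of calls were false. In the real data 71.0% of genes tested were called, a far larger part than was changed in the simulation. The simulated shares therefore do not give the recovery or the false calls of the real test. Alternatives used DESeq2 1.42.0, limma 3.58.1 on log2(FPKM + 1) and log2(FPKM + 0.1), other scaling (RLE, upper quartile, or library size only), no filter or one of 5 CPM in 3 libraries, libraries left out and single accessions. Leaving out genes with shared fragments was chosen after seeing the data. Members and lists were chosen with earlier results of these data known. The rule named all members, Trp53, Hras and, per list, the 3 called genes with the largest change in each direction. Some genes the rule names are not reported here. Depth limits precision: 3 fragments were 0.175 to 0.541 CPM.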

Additional observations from a re-analysis of the deposited data

Results flagged for a closer look

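Among 73 genes and ratios checked in the 5 tumours, 1 had a sample far from the others, and chance alone sets about 1 in 20 apart. Casp6 stood at 25.8 CPM in tumour 4 and between 44.9 and 51.2 CPM in the other tumours; the gap was 0.754 of the whole range. No member of the family was set apart in this way.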

How the results depend on the processing

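Every called member kept its direction under all 19 alternatives, and the count of 6 higher and 1 lower members went to 5 higher with the most abundant accession only (Bcl2l11, log2 fold change 3.93, edgeR adjusted p = 0.0537) and 7 with library size only (Bcl2l1, 0.47, edgeR adjusted p = 0.0474). Upper quartile factors and library size only moved the median of all genes by 0.12 and 0.14. The median of the pro-apoptotic members went from 2.23 to 2.77 with the filter of 5 CPM in 3 libraries, where Bbc3 was not tested, to 1.86 with limma on log2(FPKM + 1) and to 2.41 with the most abundant accession only. With single libraries left out, called members stayed called, with Pmaip1 between 5.55 and 5.99. Huwe1, among the 5 lower genes acting on Mcl1, no longer passed under 9 of 19 alternatives (edgeR adjusted p between 0.0542 and 0.113): without any one of the 3 brains or of tumours 1 and 2, with no filter, with the most abundant accession only, and when scaled by upper quartile or by library size only. Mapk3 passed without brain 1 (0.016) or tumour 4 (0.0386). Tnfsf10 passed without tumour 4 (0.0385), as did Bcl2l13 (0.0424) and Slc25a4 (0.0352), and Slc25a5 did not without brain 2 (0.0702) or brain 3 (0.0745). The cause was not tested. No paired analysis was possible because the labels give no replicate numbers and no source states that the file's numbers within each condition match a brain to a tumour.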
